A study of Mus musculus with 15 samples.

Results

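The subject here is a set of 40 listed mouse genes of the postsynaptic side of glutamate synapses, measured in the hippocampus during the extinction of contextual fear. The list holds 24 glutamate receptor genes, which are the AMPA subunits Gria1 to Gria4, the kainate subunits Grik1 to Grik5, the NMDA subunits Grin1, Grin2a to Grin2d, Grin3a and Grin3b, the delta receptor Grid1 and the metabotropic receptors Grm2 to Grm8. The other 16 are the scaffold genes Dlg1 to Dlg4, Dlgap1 to Dlgap4, Shank1 to Shank3, Homer2 and Homer3 and the AMPA receptor partners Pick1, Grip1 and Cacng2. The list was chosen with earlier results of these data known, and its members were matched by name. The array's gene names gave 35 of them, and Dlg1 to Dlg4 were found through their transcript accessions under the older names Dlgh1 to Dlgh4. No probe was matched to Shank2. Grm2, an inhibitory metabotropic receptor, was well above background on 3 of 15 arrays, all ELF, and was left untested. Its mean was -7.09 in ELF, against -7.18 in E1 and -7.65 in control mice. The lowest signal that counts as well above background lies above these means, so no fold is given. The other 38 were tested among 26117 genes.

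The samples are 15 hippocampi of male C57BL/6J mice, 1 mouse per array. After a footshock in a box, mice were put back there every 24 h and not shocked again, which is extinction training. The ELF group, 5 mice, was taken 1 h after trial 5, when freezing was low, and the E1 group, 5 mice, 1 h after the first trial. The 5 control mice had no shock. Their sample names call them naive, and the design text has them exposed to the context alone. All mice are of 1 strain, and the labels name no transgene. The labels name the tissue as hippocampus and give no subregion. In such bulk tissue fewer cells of a type and less RNA per cell cannot be told apart.

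Glutamate released at an excitatory synapse opens AMPA receptors, which carry the fast current, and NMDA receptors, which admit calcium and start the changes in synaptic strength that memory in the hippocampus draws on. Kainate receptors tune release and excitability, and metabotropic receptors act through G proteins. Beneath the membrane, Dlg proteins (PSD-95 and its relatives) hold the receptors, Dlgap proteins link Dlg to Shank, and Shank and Homer connect the whole to the actin skeleton and to group I metabotropic receptors. Grip1, Pick1 and Cacng2 (stargazin) bind AMPA subunits or carry them to the synapse.

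Values are log2 intensities relative to the 75th percentile of the same array, so 0 is the level of a bright probe. Differences are on the same log2 scale, each with its limma standard error (SE) where one is printed. Calls were made by limma where the p, after Benjamini-Hochberg adjustment across the 26117 genes, was under 0.05. Values of different probes are not compared as levels, since probes differ in brightness. Arrays are listed as replicates 1 to 5. Slide 4 held ELF 1, 2 and 5. Slide 3 held ELF 3 and 4 with E1 4 and 5, slide 2 held E1 1 to 3 with control 5, and slide 1 held control 1 to 4. No slide held both ELF and control arrays, so slide and group overlap in that comparison.

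The 60-base probes on which the results turn are given here as the array's design lists them, with positions on mouse build mm7 as the array files give them. Both RefSeq Grin2b probes and Grip1 are shown because the comparison of ELF with control mice turns on them for these genes. The Gria1 and Gria3 probes are shown because they share a run of 19 bases, which is in capitals. The probes for Grin2b are listed from the higher to the lower position, on the minus strand.
Grin2b, A_52_P248920, chr6:135747743-135747802: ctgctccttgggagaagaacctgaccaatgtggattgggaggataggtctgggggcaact
Grin2b, A_51_P265765, chr6:135746934-135746944, of which 11 positions are listed: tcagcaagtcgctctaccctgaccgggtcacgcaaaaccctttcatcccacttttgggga
Gria1, A_51_P498031, chr11:57370973-57371032: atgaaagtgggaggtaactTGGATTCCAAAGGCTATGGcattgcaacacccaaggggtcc
Gria3, A_52_P179309, chrX:36746442-36746501: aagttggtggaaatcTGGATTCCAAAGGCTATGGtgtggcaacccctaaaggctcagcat
Grip1, A_51_P494744, chr10:119466962-119469533: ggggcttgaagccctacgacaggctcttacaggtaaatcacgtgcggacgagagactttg
The listed span of the Grip1 probe is longer than its 60 bases, so it holds a gap, as a probe across an exon junction does. The exon of the other probes was not looked up, since no mm7 annotation was used here.

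With 1 probe per gene, the brightest, none of the 38 genes was called in any of the 3 comparisons. limma called 0 of 38 in E1 minus control, where 0.188% of all genes were called and where 3 of 38 (7.89%) had an unadjusted p under 0.05, against 13.1% of all genes. It called 0 of 38 in ELF minus control, where 2.15% of all genes were called and where 8 of 38 (21.1%) had an unadjusted p under 0.05, against 23% of all genes. In ELF minus E1 it called 0 of 38, against 0.00766% of all genes, with 3 of 38 (7.89%) at an unadjusted p under 0.05, against 9.64% of all genes.

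The values of this paragraph are those of the brightest probe of each gene. Some other probes lay outside the ranges given next, among them probes of Grik3, Grin2b, Grip1 and Dlg1 described below. The differences of the listed genes ranged between -0.23 and 0.59 in E1 minus control, between -0.50 and 0.56 in ELF minus control and between -0.63 and 0.44 in ELF minus E1. The median size of a difference, sign set aside, was 0.075 in E1 minus control, against 0.15 over all genes. It was 0.18 in ELF minus control, against 0.20 over all genes, and 0.12 in ELF minus E1, against 0.14. The signed medians were 0.04, -0.01 and -0.05 in that order of comparisons, against 0.04, 0.10 and 0.05 over all genes. In ELF minus control 22 of 38 genes had a negative difference and 16 a positive one, while 35.0% of all genes were negative. In ELF minus E1 26 of 38 were negative and 12 positive, while 39.7% of all genes were negative. In E1 minus control the split was 15 negative and 23 positive, with 41.2% negative over all genes. Since no listed gene was called, these counts describe signs only. With slide entered as a fixed block, 18 of 38 genes changed sign in E1 minus control, 18 in ELF minus control and 12 in ELF minus E1. The share of all genes that did so is not given here. With that block the median over all genes was -0.04, -0.22 and -0.18 in that order, and over the listed genes -0.02, -0.08 and -0.06. The blocked E1 minus control values rest on slide 2, with control 5 as the only control. Those of ELF minus control add the differences within slides 3 and 2, since no slide held both groups. The scaling also bears on the signs, since with the array median as the shift the median of all genes in ELF minus control was 0.00 and that of the listed genes -0.11.

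The intervals show how wide the error of each difference was for the brightest probe alone. In each comparison the 95% interval of 36 of 38 genes lay within 1 of 0 on the log2 scale, which is a change of less than 2-fold either way. Over all genes this held for 82.2% in E1 minus control, 75.8% in ELF minus control and 84.5% in ELF minus E1. The exceptions were Grik3 and Grin3b in E1 minus control, Grik3 and Grip1 in ELF minus control, and Dlg4 and Grip1 in ELF minus E1. Within 0.5 of 0 lay the intervals of 26 genes in E1 minus control, 21 in ELF minus control and 26 in ELF minus E1, against 48.1%, 43.6% and 48.8% of all genes. Groups without overlapping values were found for 0, 1 and 0 of the 38 genes in that order, against 3.71%, 4.72% and 2.05% of all genes. The interval counts include the saturated Gria1. They do not cover other probes of the same genes: for Grin2b and Gria3, both within 0.5 of 0 in ELF minus control, other probes differed by -0.67 and -0.47. The 1 gene without overlap was Grik1, lower on every ELF array than on any control array.

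**Figure D1:**
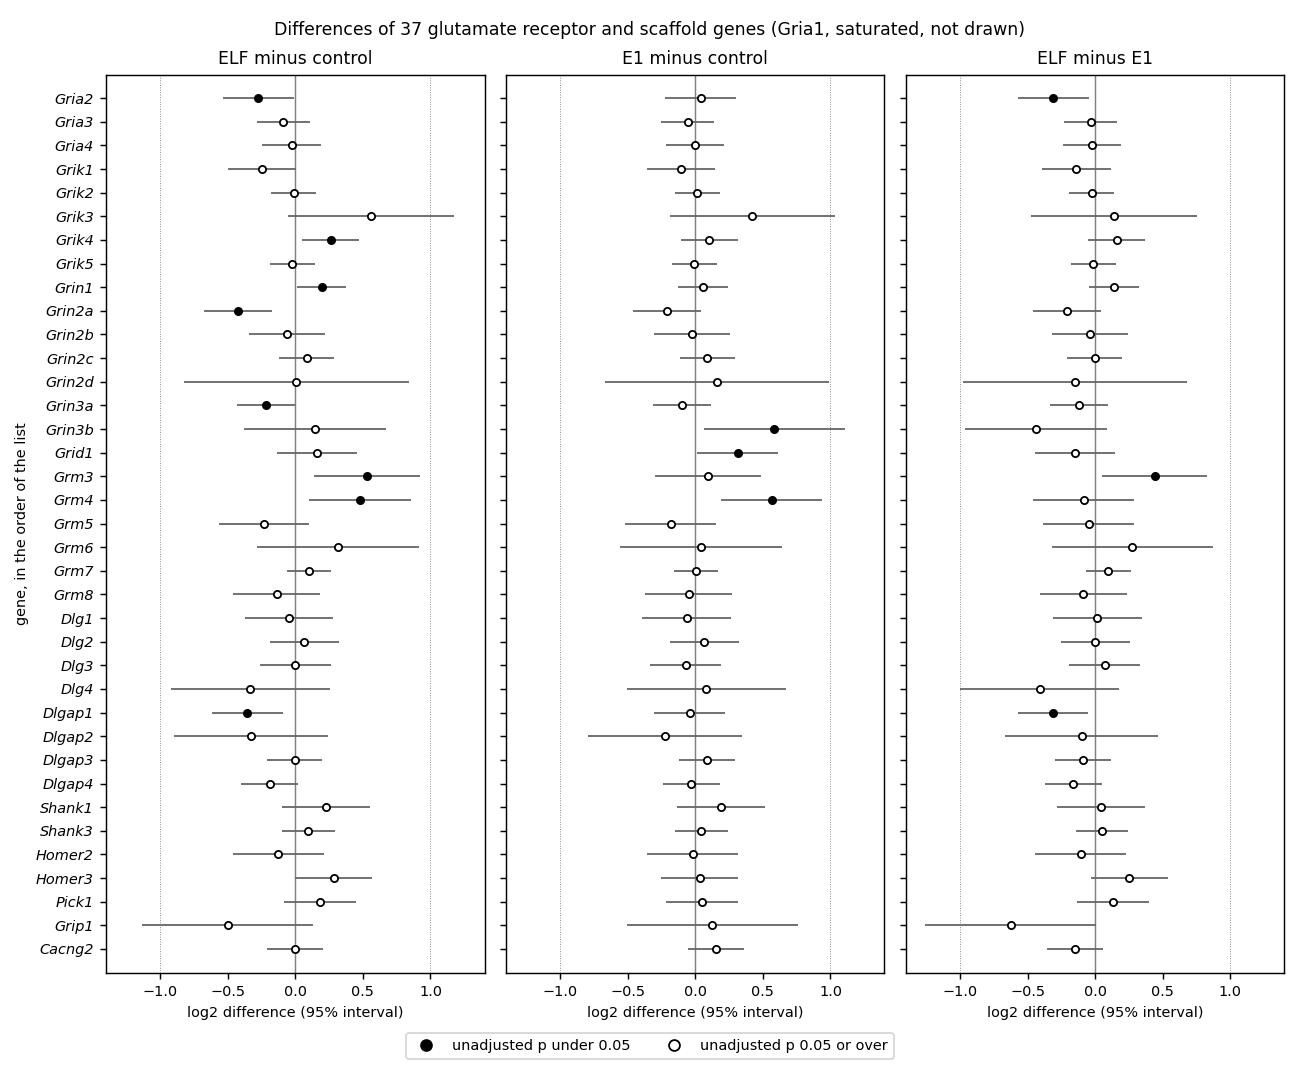
Difference of each listed gene on the log2 scale (horizontal axis) with its 95% interval from the limma fit, for 37 genes down the page and the 3 comparisons side by side. Gria1 is not drawn because its brightest probe was saturated on all 15 arrays. Filled points mark an unadjusted p under 0.05, and no gene had an adjusted p under 0.05.

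AMPA receptors are tetramers of Gria1 to Gria4, and Gria1 and Gria2 are their main subunits in hippocampal neurons. All 4 genes had negative differences in ELF minus control and in ELF minus E1, none of them called, except that Gria4 was positive in ELF minus control with normexp background correction and Gria3 positive in both with slide as a fixed block. Without ELF 4, Gria4 was positive in both, at 0.04. Gria1 enters the count of 4 genes, and those over the 38 genes, with a saturated probe. The brightest Gria1 probe was saturated on all 15 arrays, so no difference is given for it. Its other probe, shown above, was saturated on none and stood at 3.93, 2.60, 3.28, 3.70 and 3.71 on the ELF arrays, at 3.59, 3.82, 3.92, 3.89 and 3.92 on the E1 arrays and at 3.63, 3.86, 3.83, 3.83 and 3.91 on the control arrays. ELF 2 was the lowest array and the ELF and control ranges overlapped. The difference was -0.37 in ELF minus control (SE 0.19, limma adjusted p = 0.26 over all probes) and 0.01 in E1 minus control. Without ELF 2 the first was -0.16.

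Gria2, the subunit that makes AMPA receptors impermeable to calcium, had a brightest probe saturated on 10 arrays, 4 ELF, 3 E1 and 3 control. It stood at 4.51, 4.68, 4.91, 4.49 and 4.36 on the ELF arrays, at 4.63, 4.75, 4.90, 5.10 and 5.14 on the E1 arrays and at 5.03, 4.71, 4.84, 4.92 and 4.82 on the control arrays. Values of the 3 groups overlapped, and saturation narrows the differences this probe can show. They were 0.04 for E1 minus control, -0.28 for ELF minus control and -0.31 for ELF minus E1. The smallest of their p-values was 0.0226 before adjustment, for ELF minus E1, and the adjusted p was 0.451 there and 0.199 in ELF minus control. Its unsaturated probes differed by -0.40 (-0.26 without ELF 2) and -0.51 in ELF minus control, and the second stood at -1.72, -2.55, -2.15, -1.76 and -2.04 on the ELF arrays, at -2.04, -1.75, -1.80, -1.91 and -2.04 on the E1 arrays and at -1.34, -1.37, -1.46, -1.63 and -1.88 on the control arrays. ELF and control values overlapped there too, with adjusted p = 0.08 over all probes. In E1 minus control these 2 probes were negative, at -0.25 and -0.37, where the saturated probe was near 0.

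Gria3 and Gria4 are the less abundant AMPA subunits of pyramidal cells, Gria4 being common in interneurons. The brightest probe of each differed by at most 0.09 in size in every comparison. Other probes of both genes disagreed with it. The Gria3 probe that shares 19 bases with the Gria1 probe stood at -0.02, -1.10, -0.10, 0.02 and -0.13 on the ELF arrays, at -0.05, 0.27, 0.30, 0.13 and 0.12 on the E1 arrays and at 0.27, 0.34, 0.14, 0.12 and 0.12 on the control arrays. All ELF values lay below all control values, with a difference of -0.47 (adjusted p = 0.14 over all probes). ELF 2 was far the lowest, and without it the difference was -0.26. Gria3's dimmer cDNA probe differed by 0.21, in the other direction, and by 0.07 without ELF 2. For Gria4 the probe A_51_P501735 differed by -0.41 in ELF minus control (adjusted p = 0.0679), while its other 3 probes lay between -0.03 and 0.09.

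Of the kainate receptor subunits, 3 had negative and 2 positive differences in ELF minus control. Grik1, a low-affinity subunit found in interneurons, stood at 0.40, 0.39, -0.03, 0.38 and 0.42 on the ELF arrays, at 0.74, 0.57, 0.46, 0.38 and 0.10 on the E1 arrays and at 0.62, 0.61, 0.63, 0.48 and 0.44 on the control arrays. It is the gene named above for groups that do not overlap, picked after its values were seen. ELF 3 was far below the other ELF arrays, and the difference was -0.25 in ELF minus control (SE 0.12, adjusted p = 0.23) and -0.16 without ELF 3. Its second probe differed by -0.28, with overlapping groups, and by -0.07 without ELF 2. Grik2, the main subunit of mossy fibre kainate receptors, differed by at most 0.03 in size. Grik4, a high-affinity subunit prominent in CA3, averaged 3.79 ± 0.21 in ELF, 3.63 ± 0.07 in E1 and 3.53 ± 0.11 in control mice (SD, n = 5 each). Its ELF minus control difference was 0.26 (adjusted p = 0.139). Grik5, its high-affinity relative, differed by at most 0.02 in size.

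Grik3, a low-affinity kainate subunit, showed the largest ELF minus control difference among the brightest probes of the list. It stood at -3.60, -3.39, -4.41, -5.08 and -3.33 on the ELF arrays, at -4.21, -4.32, -4.22, -3.94 and -3.80 on the E1 arrays and at -4.71, -4.71, -4.56, -4.55 and -4.07 on the control arrays. The 3 ELF arrays of slide 4 were the 3 highest of all, ELF 4 was the lowest of all, and control 5 lay above the other controls. The differences were 0.42 for E1 minus control, 0.56 for ELF minus control and 0.14 for ELF minus E1, with 95% intervals of -0.05 to 1.17 for ELF minus control and -0.19 to 1.03 for E1 minus control. Adjusted p-values were 0.571, 0.256 and 0.915 in that order. Its second probe differed by 0.91, 0.70 and -0.21 in the same order. Within slide 2, 3 E1 arrays against 1 control array, the E1 minus control difference was -0.18. Within slide 3, 2 ELF against 2 E1 arrays, the ELF minus E1 difference was -0.87. Both within-slide values have the opposite sign to the values over all arrays. Without ELF 2 ELF minus E1 was -0.01. Without ELF 4 it was 0.42, and the ELF minus control difference was 0.84 (adjusted p = 0.0213). That fit called 19.8% of all genes.

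NMDA receptors combine the obligatory subunit Grin1 with Grin2 subunits that set their kinetics, and Grin3 subunits reduce their calcium entry. In ELF minus control 3 of the 7 genes had negative and 4 positive differences, and in ELF minus E1 6 of 7 were negative, none called. In ELF minus control 5 of 7 were negative with quantile normalization, with the array median as the shift and with the deposited table, and 6 of 7 with slide as a fixed block, and with normexp 5 of 7 in ELF minus E1. Grin1 stood at -0.61, -0.94, -0.76, -0.57 and -0.66 on the ELF arrays, at -0.97, -0.94, -0.86, -0.80 and -0.66 on the E1 arrays and at -0.89, -0.84, -0.98, -0.89 and -0.90 on the control arrays. ELF 2 was as low as the controls and the other 4 ELF arrays lay above every control. The difference was 0.19 in ELF minus control (SE 0.09, adjusted p = 0.195), 0.06 in E1 minus control and 0.14 in ELF minus E1.

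Grin2a, the subunit that gives mature synapses fast-decaying NMDA currents, had the smallest adjusted p among the brightest probes of the list in ELF minus control. It stood at -2.17, -2.57, -1.98, -2.00 and -2.20 on the ELF arrays, at -2.14, -1.98, -1.97, -1.86 and -1.90 on the E1 arrays and at -1.55, -1.70, -1.79, -1.73 and -2.02 on the control arrays. The highest 4 values were those of control 1 to 4, while control 5 lay among the E1 and ELF arrays. ELF minus control was -0.42 (SE 0.12, 95% interval -0.68 to -0.17, adjusted p = 0.0667), E1 minus control -0.21 and ELF minus E1 -0.21. Within slide 2 the E1 minus control difference was -0.01. Without control 5 the ELF minus control difference was -0.49 (adjusted p = 0.0249, in a fit that called 8.08% of all genes). Without ELF 4 it was -0.47 (adjusted p = 0.0243, in a fit that called 19.8% of all genes). Without ELF 2 it was -0.33 (adjusted p = 0.106), and ELF minus E1 was -0.12.

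Grin2b, the subunit of slower NMDA currents, had 4 probes that did not behave alike. Its brightest, from a cDNA, stood at 0.75, 1.37, 0.81, 0.79 and 0.71 on the ELF arrays, at 0.99, 0.94, 1.11, 1.04 and 0.56 on the E1 arrays and at 0.94, 0.93, 0.83, 0.97 and 1.08 on the control arrays. ELF 2 was high and E1 5 low, the groups overlapped, and ELF minus control was -0.06 (SE 0.13), or -0.18 without ELF 2. The RefSeq probe A_52_P248920, the first sequence above, stood at -2.52, -3.17, -2.91, -2.94 and -2.56 on the ELF arrays, at -2.43, -2.16, -2.03, -2.33 and -2.34 on the E1 arrays and at -2.07, -2.11, -2.09, -2.20 and -2.26 on the control arrays. Every ELF array lay below every E1 and every control array. In the fit over all 38457 probes this was the only probe of a listed gene past the threshold, 1 of 75 in ELF minus control, where 2.36% of all probes were called. It fell by 0.67 in ELF mice relative to control (SE 0.12, 95% interval -0.94 to -0.41, adjusted p = 0.0252). ELF minus E1 was -0.56 (adjusted p = 0.257) and E1 minus control -0.11.

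The call on this Grin2b probe did not hold in all fits. The difference was -0.54 with slide entered as a fixed block (adjusted p = 0.292), with slide as a random block -0.62 (adjusted p = 0.964), and with the replicate number as a block -0.67 (adjusted p = 0.0540). Leaving out 1 array at a time gave -0.75 to -0.58, and the call was lost in 4 of 10 such fits, those without control 1, 2, 3 or 4 (highest adjusted p = 0.0968). The neighbouring RefSeq probe A_51_P265765, whose listed start lies 809 bases away, stood at -1.68, -1.77, -1.65, -2.06 and -1.53 on the ELF arrays, at -1.65, -1.35, -1.20, -1.42 and -1.17 on the E1 arrays and at -1.52, -1.47, -1.47, -1.53 and -1.33 on the control arrays. ELF 5 reached the lowest control value, and the groups overlapped, with differences of -0.27 in ELF minus control (adjusted p = 0.163) and -0.38 in ELF minus E1 (adjusted p = 0.358). The second cDNA probe differed by -0.07 in ELF minus control. The 2 cDNA probes lie 439 kb from the RefSeq pair in mm7. Both RefSeq probes were more negative than both cDNA probes, in ELF minus control and in ELF minus E1.

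**Figure D2:**
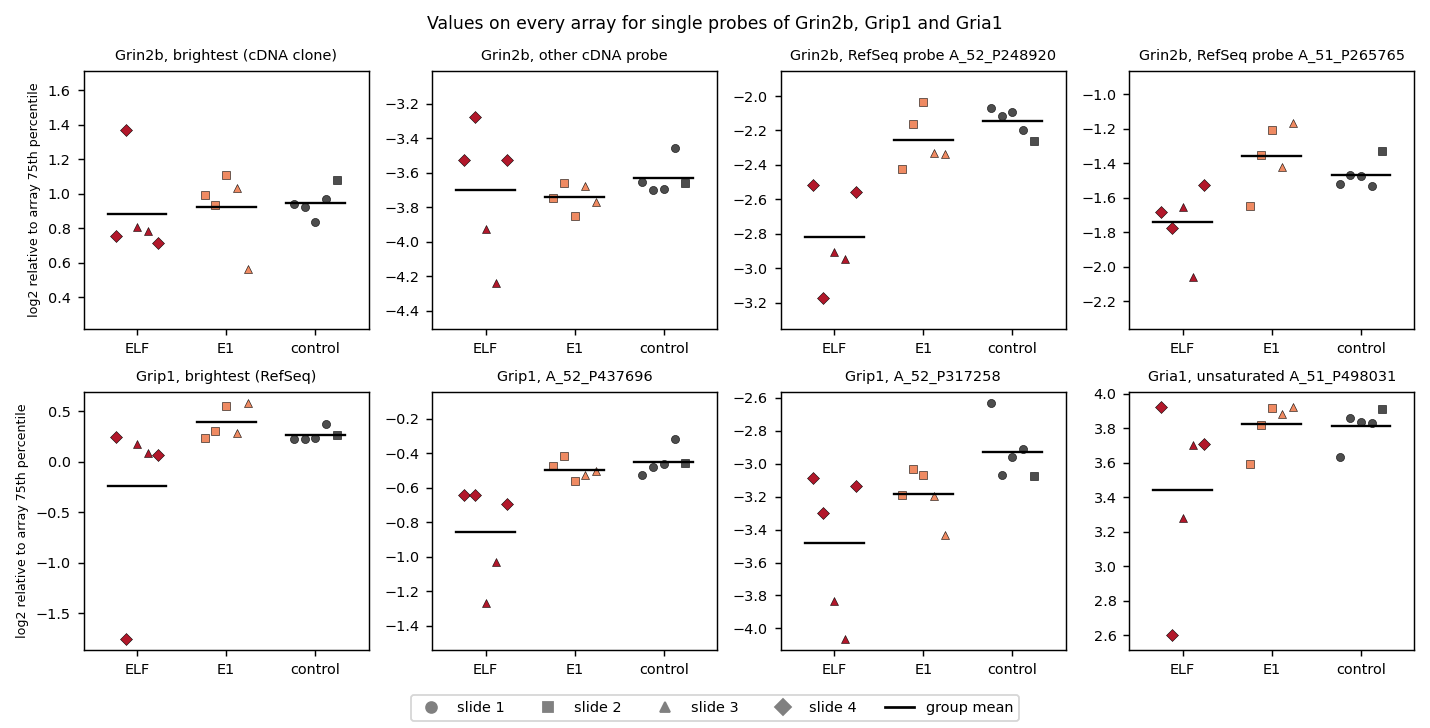
log2 intensity relative to the array's 75th percentile (vertical axis) for single probes of listed genes on each of the 15 arrays, with ELF left, E1 in the middle and control right and bars at group means. In the panel of Grin2b A_52_P248920 all 5 ELF points lie below all other points, which is not so for the brightest Grin2b probe.

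Grin2c and Grin2d, subunits with smaller roles in the adult hippocampus, differed by at most 0.16 in size. Grin2d was uneven, with 2.44 on E1 5 and 2.03 on control 4 against at most 1.29 on the other arrays. Its E1 minus control difference was 0.16, and -0.20 without E1 5. Grin3a averaged 0.72 ± 0.12 in ELF, 0.84 ± 0.22 in E1 and 0.94 ± 0.06 in control mice (SD, n = 5 each), and its ELF minus control difference was -0.22 (adjusted p = 0.208). Grin3b, the other glycine-binding Grin3 subunit and best known from motor neurons, had the largest E1 minus control difference among the brightest probes of the list. It stood at -3.68, -3.34, -4.36, -4.28 and -3.42 on the ELF arrays, at -3.38, -3.57, -3.42, -3.29 and -3.22 on the E1 arrays and at -3.58, -4.42, -4.51, -3.96 and -3.34 on the control arrays. The 5 E1 arrays lay close together, whereas ELF and control arrays were spread over more than 1 log2 unit. The difference was 0.59 in E1 minus control (SE 0.24, 95% interval 0.06 to 1.11, adjusted p = 0.321), 0.14 in ELF minus control (0.03 without ELF 2 and 0.30 without control 5) and -0.44 in ELF minus E1. Within slide 2 the E1 minus control difference was -0.11, of the opposite sign, and control 5 on that slide was the highest control. Within slide 3 ELF minus E1 was -1.06.

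Grid1, an orphan delta receptor that joins neurexins across the synapse through cerebellins, stood at -2.65, -3.03, -2.53, -3.26 and -2.72 on the ELF arrays, at -2.77, -2.62, -2.77, -2.73 and -2.52 on the E1 arrays and at -3.20, -3.02, -3.11, -2.99 and -2.65 on the control arrays. Control 5 was again the highest control, at the level of the E1 arrays of its slide. E1 minus control was 0.31 (SE 0.14, adjusted p = 0.356), ELF minus control 0.16 and ELF minus E1 -0.15. ELF minus control was 0.08 without ELF 3, 0.26 without ELF 4 and 0.25 without control 5. Within slide 2 the E1 minus control difference was -0.07.

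Of the metabotropic receptors, Grm3 and Grm2 form group II, Grm5 belongs to group I, and Grm4, Grm6, Grm7 and Grm8 form group III. Grm3, which is found on astrocytes as well as neurons, stood at 0.66, 1.49, 1.59, 1.34 and 0.64 on the ELF arrays, at 0.93, 0.80, 0.50, 0.85 and 0.45 on the E1 arrays and at 0.50, 0.74, 0.56, 0.72 and 0.55 on the control arrays. ELF 2, 3 and 4 lay above every other array, and ELF 1 and 5 lay within the control range. ELF minus control was 0.53 (SE 0.18, 95% interval 0.14 to 0.92, adjusted p = 0.114), ELF minus E1 0.44 (adjusted p = 0.478) and E1 minus control 0.09. Within slide 3, ELF minus E1 was 0.82.

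Grm4, a presynaptic inhibitory receptor, had the smallest adjusted p among the brightest probes of the list in E1 minus control. It stood at -3.92, -3.83, -4.30, -4.47 and -3.66 on the ELF arrays, at -4.00, -4.11, -3.90, -4.08 and -3.65 on the E1 arrays and at -4.50, -4.86, -4.72, -4.44 and -4.05 on the control arrays. Controls 1 to 4 overlapped the E1 arrays nowhere, and control 5 lay inside the E1 range. E1 minus control was 0.56 (SE 0.17, adjusted p = 0.169), ELF minus control 0.48 (adjusted p = 0.132) and ELF minus E1 -0.09. Without control 5, Grm4 passed the threshold in E1 minus control at 0.68 (adjusted p = 0.0367), where 4.28% of all genes were called. In that fit it also passed in ELF minus control at 0.59 (adjusted p = 0.0457), where 8.08% of all genes were called. Without ELF 4 it passed in ELF minus control at 0.59 (adjusted p = 0.0311), where 19.8% of all genes were called. Within slide 2, which holds control 5, E1 minus control was 0.04, and within slide 3 ELF minus E1 was -0.52.

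Grm5, the group I receptor that Homer proteins bind, stood at 2.85, 2.32, 3.02, 2.55 and 2.44 on the ELF arrays, at 2.54, 2.70, 2.79, 2.59 and 2.83 on the E1 arrays and at 3.31, 3.00, 2.81, 2.72 and 2.52 on the control arrays. Control 1 was the highest array and control 5 lay below the other controls. The differences were -0.18 for E1 minus control, -0.23 for ELF minus control and -0.05 for ELF minus E1, with adjusted p at or above 0.377. Without ELF 2 ELF minus control was -0.15. Its 3 other probes differed by -0.06, 0.13 and 0.26 in ELF minus control, so the sign differed between probes. Grm6, best known from retinal bipolar cells, differed by 0.32 in ELF minus control (adjusted p = 0.509) with ELF arrays spread between -2.92 and -1.27, and by 0.13 without ELF 2, 0.49 without ELF 3 and 0.54 without ELF 4. The broadly expressed Grm7 and the mainly presynaptic Grm8 differed by at most 0.14 in size with their brightest probes.

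**Figure D3:**
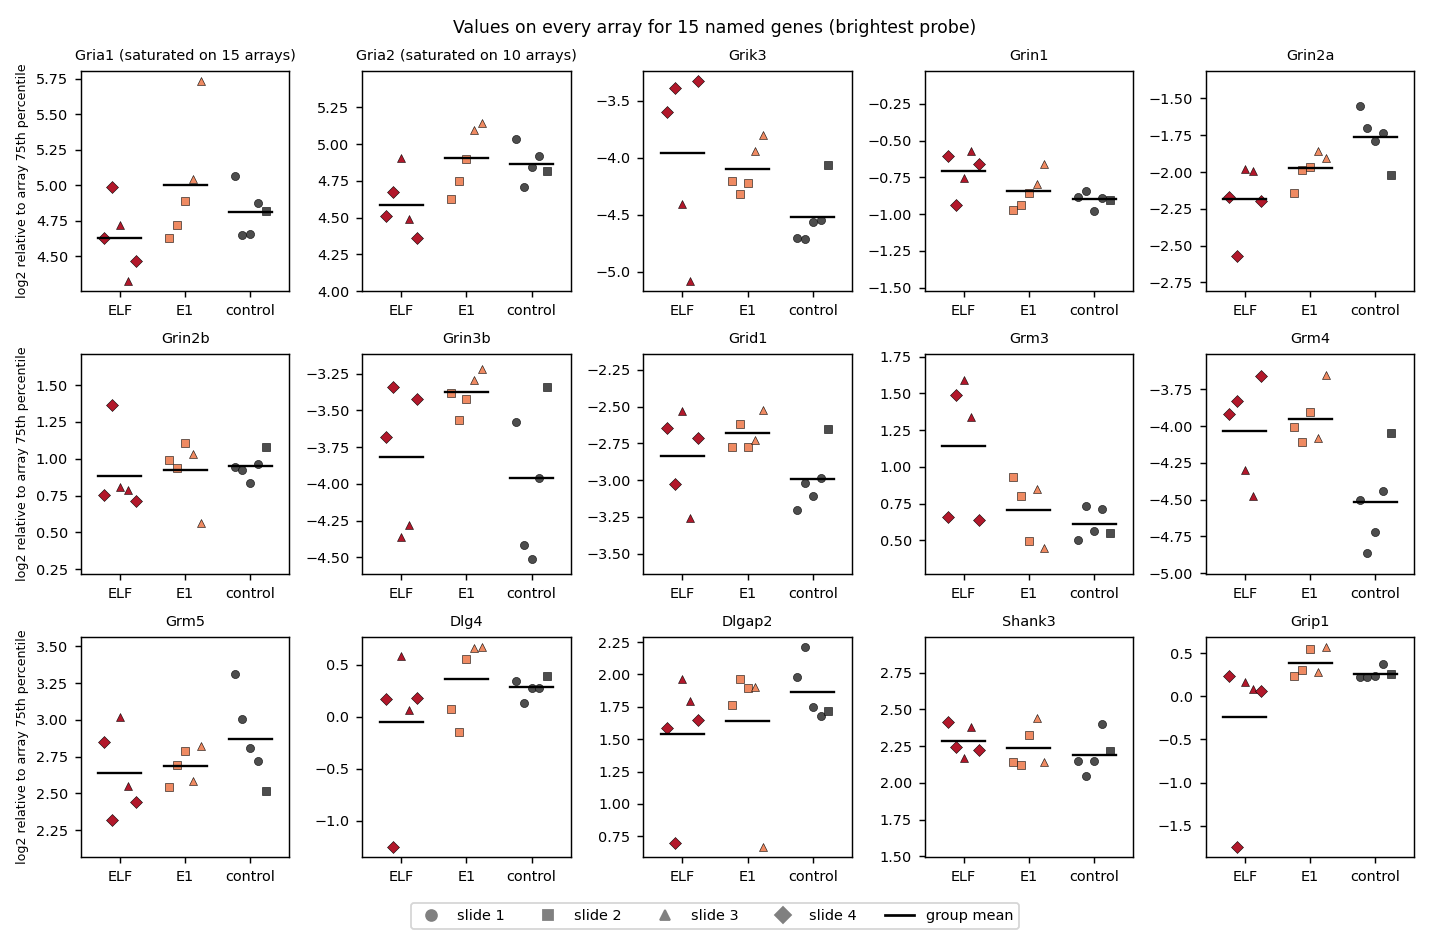
log2 intensity relative to the array's 75th percentile (vertical axis) on each array for 15 named genes, brightest probe, with ELF left, E1 in the middle and control right. Point shape gives the slide, and bars are group means. In Grik3, Grin3b and Grm4 the ELF arrays of slide 3 lie below those of slide 4, and control 5 lies above the other controls. Gria1 was saturated on all 15 arrays and Gria2 on 10.

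For 3 receptor genes the call turned on the treatment of replicate numbers. Same-numbered E1 and control arrays deviated together over all genes, and with that number as a block in a fit of these 10 arrays Grik3 (0.42, adjusted p = 0.0204), Grid1 (0.31, adjusted p = 0.0362) and Grm4 (0.56, adjusted p = 0.0186) passed the threshold in E1 minus control. That fit called 12.3% of all genes, and 3 of 38 is a share of 7.89%. With the block in a fit of all 15 arrays none of the 38 was called. All 3 genes had within-slide differences near 0 or negative on slide 2, as given above.

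Among the scaffolds, Dlg1 to Dlg4 (SAP97, PSD-93, SAP102 and PSD-95) are the proteins that hold receptors in place. The brightest probes of Dlg1, Dlg2 and Dlg3 differed by at most 0.07 in size. Dlg4, PSD-95 itself, stood at 0.17, -1.25, 0.59, 0.07 and 0.18 on the ELF arrays, at 0.07, -0.15, 0.56, 0.66 and 0.67 on the E1 arrays and at 0.34, 0.13, 0.27, 0.28 and 0.39 on the control arrays. ELF 2 lay far below every other array and the remaining ELF arrays lay within or near the control range. ELF minus control was -0.33 (95% interval -0.92 to 0.26, adjusted p = 0.478) and ELF minus E1 -0.41. Without ELF 2 these were -0.03 and -0.11. Its RefSeq probe differed by -0.15 in ELF minus control, and by -0.02 without ELF 2. For Dlg1, a dimmer probe from a predicted transcript differed by -0.50 in E1 minus control and -0.55 in ELF minus control (adjusted p = 0.0932 over all probes). Another Dlg1 probe, A_52_P499543, was also lower in E1, at -2.78 to -2.39 against -2.32 to -1.94 on the control arrays, without overlap. Its ELF arrays stood at -2.86 to -1.95 and overlapped both groups. For Dlg2, 2 probes had the other sign than the brightest in ELF minus control, at -0.29 and -0.15.

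Dlgap proteins bridge Dlg and Shank. All 4 Dlgap genes had negative differences in ELF minus control and in ELF minus E1, none of them called, except that Dlgap3 was positive in ELF minus control with normexp and Dlgap2 in both with slide as a fixed block, as was Dlgap4 in ELF minus E1. Leaving out 1 array also turned signs. Dlgap3 was positive in ELF minus control without ELF 4 (0.05) or without control 5 (0.02). Dlgap2 was positive in ELF minus E1 without ELF 2 (0.11). Dlgap1 averaged 2.43 ± 0.29 in ELF, 2.74 ± 0.12 in E1 and 2.78 ± 0.10 in control mice (SD, n = 5 each). Its difference was -0.36 in ELF minus control (adjusted p = 0.111) and -0.31 in ELF minus E1, where its adjusted p of 0.447 was the smallest among the brightest probes. Its 3 other probes differed by 0.08, -0.16 and -0.54 in ELF minus control, the last 2 by -0.07 and -0.29 without ELF 2. Dlgap2 stood at 1.59, 0.70, 1.97, 1.80 and 1.64 on the ELF arrays, at 1.76, 1.97, 1.90, 1.91 and 0.66 on the E1 arrays and at 1.98, 2.21, 1.75, 1.68 and 1.72 on the control arrays. ELF 2 and E1 5 lay well below every other array. Its ELF minus control difference was -0.33 (adjusted p = 0.467) and -0.12 without ELF 2, and E1 minus control was -0.23, but 0.02 without E1 5. Its second probe differed by 0.41 in E1 minus control and 0.31 in ELF minus control, both of the opposite sign to the brightest probe.

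Shank proteins are the master scaffolds below Dlgap, and SHANK3 is a gene of human autism. Shank1 and Shank3 had positive differences in every comparison, none called, but signs turned in each comparison under other settings. Both were negative in ELF minus E1 with the array median as the shift and with the deposited table, and Shank1 there with quantile normalization. Shank3 was negative in E1 minus control with normexp, in ELF minus control with the median shift, and in every comparison with slide as a fixed block. Shank3 stood at 2.42, 2.24, 2.17, 2.38 and 2.23 on the ELF arrays, at 2.14, 2.12, 2.32, 2.44 and 2.14 on the E1 arrays and at 2.15, 2.05, 2.15, 2.40 and 2.21 on the control arrays. The groups overlapped throughout, and differences were 0.04 for E1 minus control, 0.10 for ELF minus control and 0.05 for ELF minus E1. The 95% interval for ELF minus control was -0.10 to 0.29. Shank1 differed by 0.23 in ELF minus control (adjusted p = 0.377), and by 0.09 without ELF 4. Its ELF minus E1 difference was -0.10 without that array. Homer proteins tie Shank to Grm5. Homer2 differed by -0.13 in ELF minus control, with ELF 2 at 1.46 against 2.23 to 2.50 on the other ELF arrays and 0.05 without ELF 2, and its second probe by 0.07. Homer3 differed by 0.28 in ELF minus control (adjusted p = 0.22).

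Grip1, which anchors Gria2 and Gria3 through PDZ domains, had the most negative ELF minus E1 difference among the brightest probes of the list. It stood at 0.24, -1.75, 0.17, 0.09 and 0.06 on the ELF arrays, at 0.24, 0.31, 0.55, 0.29 and 0.58 on the E1 arrays and at 0.23, 0.22, 0.24, 0.38 and 0.26 on the control arrays. ELF 2 lay far below every other array, and the other ELF arrays lay at or just below the controls. ELF minus control was -0.50 (95% interval -1.14 to 0.13, adjusted p = 0.32) and ELF minus E1 -0.63. Without ELF 2 these were -0.12 (adjusted p = 0.460) and -0.25 (adjusted p = 0.429). The 2 cDNA probes of Grip1 did not show this single low array. A_52_P437696 stood at -0.64, -0.64, -1.27, -1.03 and -0.69 on the ELF arrays, at -0.47, -0.42, -0.56, -0.53 and -0.50 on the E1 arrays and at -0.53, -0.48, -0.46, -0.32 and -0.46 on the control arrays. Every ELF array lay below every control and every E1 array, with ELF minus control at -0.41 (SE 0.11, adjusted p = 0.0664 over all probes). A_52_P317258 differed by -0.55 (adjusted p = 0.0921), again with no overlap between ELF and control. There the highest ELF array (-3.088) and the lowest control array (-3.075) nearly met. On both cDNA probes the lowest arrays were ELF 3 and ELF 4, the ELF arrays of slide 3.

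Pick1, which binds Gria2 and takes part in its internalisation, differed by 0.18 in ELF minus control with its brightest probe and by -0.03 with its second. ELF 2 stood at 2.65 on the brightest probe, against 1.89 to 2.21 on the other ELF arrays, and without it the difference was 0.05. Cacng2, the auxiliary subunit that brings AMPA receptors to the surface, differed by 0.00 with its brightest probe. Its other tested probes differed by -0.47 and by 0.26, so the 3 probes of this gene pointed different ways. On the probe at -0.47, ELF 2 was lowest, at -1.89. ELF and control did not overlap there, but the highest ELF array (-0.901) and the lowest control array (-0.896) nearly met.

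Over all 75 tested probes of the list, 24 had an unadjusted p under 0.05 in ELF minus control, 16 of them lower and 8 higher in ELF, a share of 32%, and 23.4% of all probes on the array did. In E1 minus control and in ELF minus E1 there were 9 each, a share of 12%, against 13.1% and 9.98% of all probes, and limma called none of the 75 in either, where it called 0.104% and 0.0052% of all probes. Of the 21 genes with more than 1 tested probe, 10 had only negative probes in ELF minus control, among them Gria1, Gria2, Grin2b, Grin3a, Grip1 and Dlg4. Grik3 alone had only positive ones, and the other 10 had both signs. In ELF minus E1 11 genes had only negative probes, Pick1 had only positive ones and 9 had both signs. In E1 minus control the counts were 5, 5 and 11. The shares over all genes with several probes are not given here. Gria1 enters these counts with its saturated probe. Without ELF 2 the brightest probe of Grik2 was positive in ELF minus control (0.02) and in ELF minus E1 (0.005). Those of Dlg2, Dlgap2 and Homer2 were then positive in ELF minus E1. Grin3a counts as negative in both ELF comparisons, but its second probe does so through ELF 4 alone, at -7.86. Its other ELF arrays stood at -3.84 to -2.87, its E1 arrays at -4.90 to -3.68 and its control arrays at -4.31 to -3.54. The probes of Gria3 differed most within a gene, by 0.78 in ELF minus E1.

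Single arrays and slides moved with these values. ELF 2 was the lowest ELF array for 13 of 38 listed genes, among them Grin2a, Dlg4, Dlgap1, Dlgap2, Dlgap4, Homer2, Grip1 and Cacng2, against 14.4% of all genes. It was the highest ELF array for 9 of 38, against 56.6% of all genes. ELF 3 was the highest ELF array for 15 of 38, against 11.9% of all genes, and the lowest for 3, against 13.7%. E1 5 was the highest E1 array for 17 genes, against 32.6% of all genes. Both ELF arrays of slide 3 lay below all 3 of slide 4 for 8 genes, Gria4, Grik1, Grik3, Grin3b, Grm4, Grm6, Dlgap3 and Homer3, against 46.8% of all genes, and above them for 6, against 10.0%. Control 5 lay above the other controls for 11 genes, including Grik3, Grin3b, Grid1 and Grm4, against 34.7% of all genes. It lay below them for 7, including Grin2a and Grm5, against 20.2%. With slide entered as a fixed block, which rests ELF minus E1 on the 4 arrays of slide 3, limma called 6 listed genes in that comparison, where 19.6% of all genes were called. Grik3, Grin3b and Grm6 were lower in ELF, at -0.87, -1.06 and -0.69, and Grm3 and Dlg1 higher, at 0.82 and 0.61. The other was the saturated Gria1. The Dlg1 value is that of its brightest probe. On each other Dlg1 probe the ELF and E1 values of slide 3 overlapped. The part of slide in the group differences was not tested apart from the blocked and within-slide values given.

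**Figure D4:**
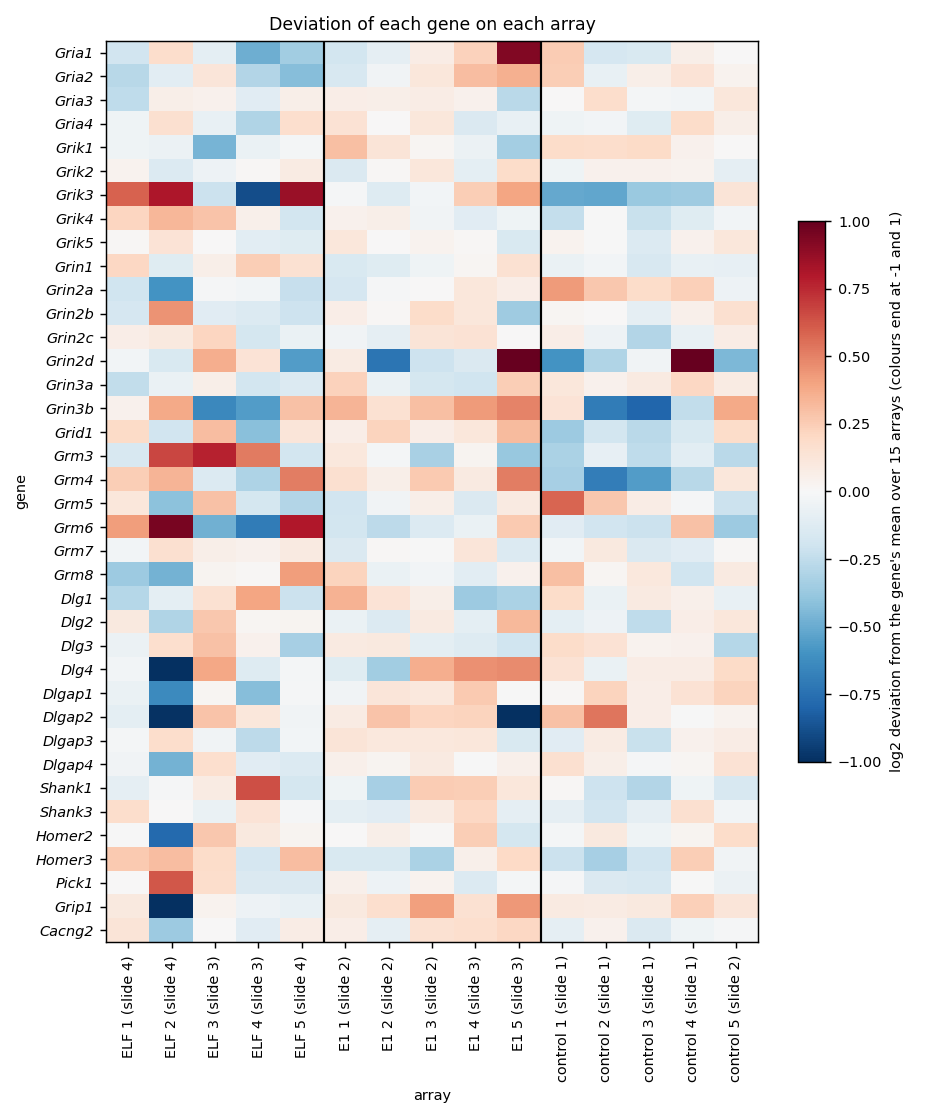
Deviation of each of 38 listed genes (rows) on each array (columns, ELF left, E1 in the middle, control right, slide in brackets) from the gene's mean over 15 arrays, on the log2 scale. Colours end at -1 and 1. ELF 2 has dark blue cells in Dlg4, Dlgap2 and Grip1, and Grik3 is red on ELF 1, 2 and 5 and blue on ELF 4.

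Other genes of the same synapses were counted in 4 further lists, and limma called none of them in any comparison. Of 18 tested genes of AMPA receptor auxiliary subunits and trafficking, 6 (33.3%) had an unadjusted p under 0.05 in E1 minus control, 4 (22.2%) in ELF minus control and 5 (27.8%) in ELF minus E1. Over all genes these shares were 13.1%, 23% and 9.64%. Nptx2, a secreted pentraxin that clusters AMPA receptors and follows neuronal activity, differed by 0.64 in E1 minus control (adjusted p = 0.0867), by 0.12 in ELF minus control and by -0.52 in ELF minus E1. Its relative Nptx1 differed by -0.52 in both E1 minus control and ELF minus control. Of 9 other glutamate receptor genes, 1 (11.1%) had an unadjusted p under 0.05 in each comparison. Grasp, a scaffold of group I metabotropic receptors, differed by 0.38 in E1 minus control and -0.36 in ELF minus E1. Of 35 further genes of postsynaptic scaffolds and adhesion, 0, 6 (17.1%) and 5 (14.3%) had an unadjusted p under 0.05 in E1 minus control, ELF minus control and ELF minus E1. Synpo, an actin-binding protein of the spine apparatus, differed by 0.66 in E1 minus control, and by 0.26 without E1 5. Lrrtm4, an adhesion protein of dentate synapses, differed by -0.51 in ELF minus control, and by -0.24 without ELF 2. Of 17 genes of glutamate supply and clearance the counts were 2 (11.8%), 2 (11.8%) and 4 (23.5%). Slc1a2, the astrocytic glutamate transporter, differed by -0.02, -0.23 and -0.21 in that order, and its ELF minus control difference was -0.35 without ELF 3 and -0.14 without ELF 4.

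For the arrays as a whole, the 75th percentile intensity lay between 1441 and 2932 and between 83.5% and 97.2% of spots were well above background. Any 2 arrays correlated at 0.951 to 0.997 over all genes. Markers of hippocampal pyramidal and granule neurons, 15 of 17 tested, averaged 2.16 to 2.34 on the ELF arrays, 2.05 to 2.42 on the E1 arrays and 2.12 to 2.30 on the control arrays, with 11 above the 75th percentile on every array. Astrocyte markers averaged 2.39 to 2.69 in ELF, 2.42 to 2.57 in E1 and 2.41 to 2.46 in control mice. Markers of endothelium, 10 of 11 tested, averaged -1.45 to -1.14 in ELF, -1.15 to -0.93 in E1 and -0.74 to 0.01 in control mice, and limma called 7 of the 10 lower in ELF than in control, where 2.15% of all genes were called. It called Cldn5 and Kdr, 2 of the 10, lower in E1 than in control, where 0.188% of all genes were called. Markers of choroid plexus, 9 of 11 tested, averaged -1.64 to 1.35 in ELF, 1.43 to 2.01 in E1 and 1.63 to 2.25 in control mice. The -1.64 was that of ELF 3, and the other ELF arrays lay at 1.08 to 1.35. In ELF minus control limma called none of the 9, and 7 had an unadjusted p under 0.05, against 23% of all genes. Markers of thalamus and habenula, 11 of 11 tested, averaged -1.03 to -0.70 in ELF, -0.93 to -0.58 in E1 and -1.11 to -0.86 in control mice. Their median E1 minus control difference was 0.32, against 0.04 over all genes, with 5 of 11 at an unadjusted p under 0.05 and Ramp3 called higher in E1. The part of vessels, choroid plexus and neighbouring thalamus in the receptor and scaffold values was not tested.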

How the data were processed

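Total RNA of 15 mouse hippocampi, isolated with TRIzol and labelled with Cy3 per the labels' protocols, was hybridised to 15 single-colour Agilent arrays. Per the file headers, Agilent Feature Extraction 9.5.3.1 read 45018 spots per array and gave a processed intensity that was background-subtracted and detrended within the array, besides mean and background intensities and flags of 0 or 1. The value table that the authors deposited is on a log2 scale, since its values follow log2 of the mean intensity (r of at least 0.996), with array medians of 8.68 to 8.92. Its between-array step is not stated in the sources used. The tools named in the submitters' processing notes are limma and Agilent Feature Extraction.

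From the processed intensity, 1639 control spots and outlier spots were left out and log2 values were set relative to each array's 75th percentile. Spots were averaged to 41174 probes. The 38457 probes well above background on at least 5 of 15 arrays were kept, and the brightest probe of each gene name was used (26117 genes). The comparisons used limma 3.58.1 (R 4.3.3) on all 15 arrays without a covariate, two-sided, with Benjamini-Hochberg adjustment. A second fit took all kept probes. The code was tested on simulated data. The number of arrays limits the precision. Probe positions are on mm7 per the file headers.

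The members and lists were chosen with earlier results of these data known. Genes named with values per array are those called, the 5 with the largest difference in each comparison, and Gria1, Gria2, Grin1, Grin2a, Grin2b, Grm5, Dlg4 and Shank3. Of each further list the 2 largest differences were named, and 1 gene so chosen is not reported here. Genes added to these are Grik1, Slc1a2, Dlgap1 and the others given by a mean or a difference. Replicate numbers of E1 and control arrays were taken as pairs because all 5 same-numbered pairs correlated above 0.1 in their deviations from the group means (0.142 to 0.299). This pairing comes from the data, and 3 of the 5 arrays correlated best with their own number. The labels call the samples of a group biological replicates. Alternatives were the background correction, the between-array normalization, the filter, the probe choice, the slide, the replicate block, the deposited table and leaving out each array.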

Additional observations from a re-analysis of the deposited data

Results flagged for a closer look

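In 11 of 114 groups of 5 arrays (9.65%, against 7.68% of the groups of all genes) 1 array stood apart, by a gap to its nearest neighbour above 0.71 of the group's range. Chance flags about 1 in 20 such groups. ELF 2 was that array 4 times. It was low in Grip1 (-1.75, the other ELF arrays 0.06 to 0.24), Dlg4 (-1.25, the others 0.07 to 0.59) and Homer2 (1.46, the others 2.23 to 2.50), and high in Grin2b (1.37, the others 0.71 to 0.81). E1 5 was low 3 times, in Gria3 (1.64, the other E1 arrays 1.96 to 1.98), Dlgap2 (0.66, the others 1.76 to 1.97) and Dlgap3 (4.11, the others 4.37 to 4.39). Grik1 was low on ELF 3 (-0.026, the other ELF arrays 0.38 to 0.42) and Homer3 on ELF 4 (-0.64, the others -0.29 to -0.17). Among controls, Grik3 was high on control 5 (-4.07, the others -4.71 to -4.55) and Grip1 on control 4 (0.38, the others 0.22 to 0.26).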

How the results depend on the processing

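Over the alternatives, the genes called among all genes changed widely in number. In E1 minus control they numbered 454 with quantile normalization, 300 with the array median as the shift, 240 with the deposited table, 4 with slide as a fixed block, 0 with slide as a random block (within-slide correlation 0.468), 9 with the replicate block over 15 arrays and 3201 with it in the 2 groups alone, an alternative chosen after seeing the data, against 49. In ELF minus control they numbered 1701, 1203, 1587, 85, 0, 217 and 0 in that order and 0 with the 2 groups alone and no block, against 562. In ELF minus E1 they were 5, 0, 11, 5120, 0, 0 and 0 in that order, 0 with the 2 groups alone, 0 with normexp and 4 with probes well above background on all arrays, against 2. Leaving out 1 array gave 8 to 1119, 0 to 5164 and 0 to 11. The cause was not tested.

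Listed genes called numbered 3 of 38 with the replicate block in E1 minus control (2 groups), where 12.3% of all genes were called. With slide as a fixed block in ELF minus E1 they numbered 6 of 38, where 19.6% of all genes were called. Those 6 were Gria1, saturated, Grik3, reversed at -0.87 (adjusted p = 0.0158, against 0.14), Grin3b (-1.06), Grm6 (-0.69), Grm3 (0.82) and Dlg1 (0.61, on its brightest probe only). Leaving out 1 array gave 0 to 1, 0 to 3 and 0 to 0. The 1 came without control 5 (4.28% of all genes called) and the 3 without ELF 4 (19.8%). The median of the listed genes became -0.018 in E1 minus control with slide as a fixed block. In ELF minus control it became -0.11 with the median shift, -0.10 with the deposited table and -0.079 with slide as a fixed block, and in ELF minus E1 -0.10 with the median shift. The median shift moves the median of all genes in ELF minus control to 0.00, against 0.10. Left-out arrays gave 0.01 to 0.06, -0.03 to 0.003 and -0.06 to -0.02. Of the named genes' values under all alternatives but left-out arrays, 29 of 210, 14 of 195 and 15 of 210 changed sign. With slide as a fixed block 18, 18 and 12 of the 38 listed genes did, and the median over all genes turned negative (-0.04, -0.22 and -0.18). The numbers did not pair ELF with control (2 of 5 pairs above 0.1) or ELF with E1 (1 of 5), and the block called no listed gene there. Called genes in ELF minus control split 389 higher and 173 lower, but 781 higher and 806 lower with the deposited table. Dim probes limit Grm2, and saturation limits Gria1 and Gria2.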
